A study of Mus musculus with 2 samples.

Results

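The enzymes that write, copy and remove DNA methylation were followed as 9 genes in RNA sequencing of 2 mouse samples. They were the methyltransferase genes *Dnmt1*, *Dnmt3a*, *Dnmt3b* and *Dnmt3l*, the cofactor gene *Uhrf1*, the dioxygenase genes *Tet1*, *Tet2* and *Tet3*, and the glycosylase gene *Tdg*. They were chosen by symbol, and all 9 were found among the 29311 genes listed. The first sample was ES cells, the wild-type E14 line, which was grown without feeders on gelatin in serum and LIF and is a single line. The other was forebrain of wild-type B6CBAF1/J embryos at E10.5, for which the methods describe RNA from single embryos. Both are labelled wild type and neither with a treatment. Total RNA was extracted with Trizol from the ES cells and with Trizol LS from the forebrain, depleted of ribosomal RNA and made into strand-specific libraries. There was 1 library per group, so no difference below has a replicate check, and strain, culture or tissue, and extraction reagent cannot be told apart from cell type.

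In mammals, most methylated cytosines lie in CpG dinucleotides. Dnmt1 copies the methyl mark to the new strand after replication, and it is brought to hemimethylated DNA by Uhrf1. Dnmt3a and Dnmt3b place methyl groups on unmethylated DNA, and Dnmt3l, which has no activity of its own, stimulates them. The Tet enzymes oxidize 5-methylcytosine to 5-hydroxymethylcytosine and further products, and Tdg excises the most oxidized of these, after which base excision repair restores an unmodified cytosine. Serum-grown ES cells are known for their *Dnmt3b*, *Dnmt3l* and *Tet1* expression, and the developing nervous system for *Dnmt3a* and *Tet3*.

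CpG is the site of the mark, and the CpG content of the promoters of these genes differed widely. In the 250 bases before each start site of RefSeq (GRCm38.p6, a later build than that of the deposited tables), the 9 genes had 16 windows. The median window of all genes, over 32851 windows, held 6 CpG. The first window of each of the 5 genes that differed at least 2-fold between the samples is given here, 5′ to 3′ on the strand of the gene, with CpG in capitals. They lie at chr10:78042037-78042286 (+) for *Dnmt3l*, chr2:153649199-153649448 (+) for *Dnmt3b*, chr10:62887325-62887574 (-) for *Tet1*, chr12:3806730-3806979 (+) for *Dnmt3a* and chr6:83441679-83441928 (-) for *Tet3*.
Dnmt3l: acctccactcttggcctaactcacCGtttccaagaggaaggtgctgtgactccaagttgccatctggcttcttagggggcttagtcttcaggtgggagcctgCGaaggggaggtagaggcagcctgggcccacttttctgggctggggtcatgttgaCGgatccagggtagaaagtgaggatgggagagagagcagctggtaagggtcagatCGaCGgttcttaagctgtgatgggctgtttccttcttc
Dnmt3b: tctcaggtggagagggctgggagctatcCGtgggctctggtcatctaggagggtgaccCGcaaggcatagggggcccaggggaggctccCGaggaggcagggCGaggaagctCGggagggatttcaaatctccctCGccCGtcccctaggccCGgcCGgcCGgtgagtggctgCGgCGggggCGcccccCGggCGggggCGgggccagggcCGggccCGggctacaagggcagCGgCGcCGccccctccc
Tet1: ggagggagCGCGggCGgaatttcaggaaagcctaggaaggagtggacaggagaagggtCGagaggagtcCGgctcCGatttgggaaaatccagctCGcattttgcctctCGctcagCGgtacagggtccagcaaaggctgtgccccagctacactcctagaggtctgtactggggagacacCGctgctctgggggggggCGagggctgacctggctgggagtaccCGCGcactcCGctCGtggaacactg
Dnmt3a: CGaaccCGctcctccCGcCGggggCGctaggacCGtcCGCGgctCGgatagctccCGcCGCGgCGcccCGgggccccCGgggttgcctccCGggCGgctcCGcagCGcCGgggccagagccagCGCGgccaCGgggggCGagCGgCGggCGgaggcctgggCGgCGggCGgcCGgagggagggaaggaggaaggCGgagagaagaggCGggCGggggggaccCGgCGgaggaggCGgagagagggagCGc
Tet3: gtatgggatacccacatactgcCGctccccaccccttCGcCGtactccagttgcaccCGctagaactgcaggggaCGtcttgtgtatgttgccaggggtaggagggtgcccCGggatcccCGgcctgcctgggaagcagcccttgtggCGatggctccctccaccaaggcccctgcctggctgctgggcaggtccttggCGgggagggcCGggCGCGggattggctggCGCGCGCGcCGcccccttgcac

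The *Dnmt3l* window held 5 CpG, more than 44.4% of all windows. The other start sites of that gene held 4 and 3. The *Dnmt3b* window held 21 CpG, more than 83.7% of all windows, the *Tet1* window 15 (72.7%) and the *Tet3* window 17 (76.5%). The *Dnmt3a* window held 38 (98.1%). That gene had other start sites with 40 and 15 CpG. *Dnmt3l* was thus below the median of all windows at each of its start sites, whereas the first windows of the other 4 genes shown were above the median of all windows. Among the genes within 2-fold, *Tet2* had the richest window, with 51 CpG (99.9%), *Tdg* had 19 (80.3%), *Dnmt1* had 2, 7 and 26 at its 3 start sites, and *Uhrf1* had 10 and 30 at its pair. DNA methylation was not measured in these samples.

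Both maintenance genes had a start site with letters of the E2F type (TTTNNCGC, searched on both strands), a motif of genes used in S phase. They are shown because no other gene of the 9 held a match. The *Dnmt1* window is at chr9:20952624-20952873 (-) and the *Uhrf1* window at chr17:56304063-56304312 (+) of GRCm38.p6, and capitals mark the matched letters, which for *Dnmt1* are 2 overlapping matches.
Dnmt1: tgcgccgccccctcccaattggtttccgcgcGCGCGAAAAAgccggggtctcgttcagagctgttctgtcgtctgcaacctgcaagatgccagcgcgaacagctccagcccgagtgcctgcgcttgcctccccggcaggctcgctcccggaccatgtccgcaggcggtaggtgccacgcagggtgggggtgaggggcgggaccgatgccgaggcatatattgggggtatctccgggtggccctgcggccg
Uhrf1: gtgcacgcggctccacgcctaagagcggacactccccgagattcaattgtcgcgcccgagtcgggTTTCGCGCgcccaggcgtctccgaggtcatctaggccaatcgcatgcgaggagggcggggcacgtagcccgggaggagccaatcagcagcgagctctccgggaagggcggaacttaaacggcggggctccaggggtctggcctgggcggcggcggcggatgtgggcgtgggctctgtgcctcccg

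Such letters were present in 3 of the 16 windows, the third being the other window of *Uhrf1*, and in 4.28% of all windows. The motif contains a CpG, and these 3 windows held 26, 30 and 10 CpG, beside a median of 6. The share over all windows is therefore not a background matched for CpG. The octamer ATTTGCAT was in 0 of the 16 (1.6% of all windows), CCAAT in 6 (33.8%) and the E-box CACGTG in 3 (6.02%). A match describes letters in a window and not a bound site, and none of these letter strings contains another.

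The levels below are RPKM, reads per kilobase of exon, on the scale of the deposited tables, which is not a per-million scale of these reads and in which the median gene stood at 48.94 in ES cells and at 62.37 in the forebrain. The intervals in parentheses are exact Poisson 95% intervals from the number of reads inferred for the gene, and those of a ratio are exact binomial 95% intervals. They cover the counting of reads only. A gene was counted as different when log2(RPKM + 1) differed by at least 1 (2-fold), and differences are ES cells minus forebrain. From the smallest steps in the values, 42796251 reads on genes were inferred for the ES cells and 59785185 for the forebrain.

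**Figure D1:**
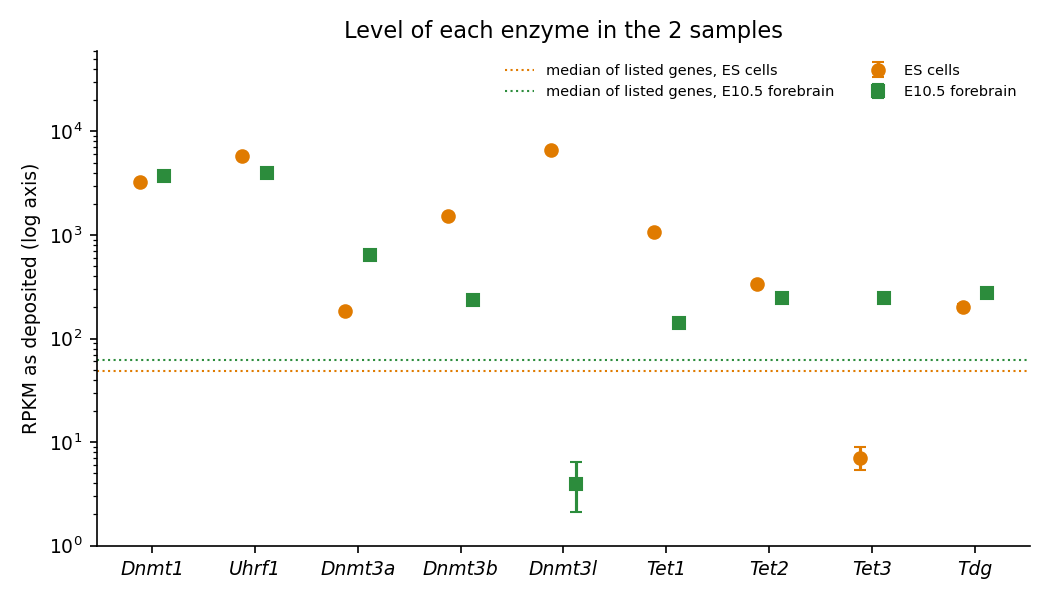
RPKM of the 9 genes (log axis) in the ES cell and forebrain libraries, 1 sample each, with bars for the exact Poisson 95% interval of counting, mostly hidden by the symbols, and dotted lines for the median listed gene (48.94 and 62.37). *Dnmt3l* falls from 6647 in ES cells to 3.97 in forebrain and *Tet3* stands at 7.05 in ES cells against 245 in forebrain, while *Dnmt1* and *Uhrf1* stand at 3272 and 5837 in ES cells and at 3672 and 3937 in forebrain.

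The 9 genes did not move together. Of the 9, 3 were at least 2-fold higher in ES cells (*Dnmt3l*, *Tet1* and *Dnmt3b*), or 33.3%, beside 23.3% of all listed genes. In the forebrain, 2 were at least 2-fold higher (*Tet3* and *Dnmt3a*), or 22.2%, beside 25.8% of all listed genes. The other 4 (*Dnmt1*, *Uhrf1*, *Tet2* and *Tdg*) were within 2-fold. The median absolute log2 difference was 1.81 over the 9 genes and 0.97 over all listed genes. In each sample 8 of the 9 lay above the median gene. The exception was *Tet3* in ES cells and *Dnmt3l* in the forebrain. Under every scaling tried the direction of each of the 9 stayed as given. The span between the highest and lowest of the 9 levels was 943-fold in ES cells and 992-fold in the forebrain.

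*Dnmt1* and *Uhrf1*, the maintenance pair, were among the most abundant genes in both samples. *Dnmt1* (chr9:20711650-20757317, minus strand, coordinates of NCBIM37 here and for the genes that follow) stood at an RPKM of 3272 (3218 to 3327) in ES cells, from 14113 reads. In the forebrain it stood at 3672 (3626 to 3720), from 23602 reads. The forebrain level was 1.12 times that of ES cells (1.10 to 1.15), a small difference beside the spread of all genes. *Dnmt1* was at or above 95.7% of listed genes in ES cells and 97.0% in the forebrain.

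*Uhrf1* (chr17:56442744-56462909, plus strand), which reads hemimethylated CpG, had RPKM values of 5837 (5757 to 5917) in ES cells against 3937 (3883 to 3991) in the forebrain. It was 1.48 times higher in ES cells (1.45 to 1.51), at a log2 difference of 0.57. Its level was 1.78 times that of *Dnmt1* in ES cells and 1.07 times in the forebrain. *Uhrf1* shares 98.3% identity over 1590 bp with the pseudogene *Gm5648* on chromosome X, listed at 6643 and 4478, the same ratio of 1.48 between the samples. The split of reads between gene and copy is therefore uncertain. With the reads of the copy added, *Uhrf1* would stand at 8312 and 5605, above *Dnmt3l* in ES cells.

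The de novo genes differed in both directions. *Dnmt3l* (chr10:77504692-77526367, plus strand), the inactive cofactor, was the most abundant of the 9 in ES cells, with an RPKM of 6647 (6545 to 6750) from 16273 reads. In the forebrain it stood at 3.97 (2.10 to 6.44), from 14 reads. It ranked 606 in ES cells and 22104 in the forebrain among 29311 genes. The ES cell level was 1674 times that of forebrain (1032 to 3169), with a log2 difference of 10.39. Only 11 listed genes, or 0.0375%, had a larger difference in that direction. The forebrain level was above the RPKM that 3 reads would give but below the median gene.

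*Dnmt3b* (chr2:153475186-153513466, plus strand), the de novo enzyme of the early embryo, reached 1515 RPKM (1478 to 1552) in ES cells against 234 (222 to 246) in the forebrain. The ES cell level was 6.48 times higher (6.12 to 6.87), and 7.39% of listed genes had a larger difference in that direction. A pseudogene on the same chromosome, *Gm14490* (93.3% identity over 1653 bp), was listed at 335 and 48.93. Adding its reads left the ratio at 6.51.

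*Dnmt3a* (chr12:3806007-3914443, plus strand), the other de novo enzyme, went the opposite way. Its RPKM was 183 (175 to 190) in ES cells and 643 (632 to 654) in the forebrain. The forebrain level was 3.52 times higher (3.38 to 3.68), at a log2 difference of -1.81, and 16% of listed genes had a more negative difference. The gene has 18 annotated transcripts over 16642 bp of exon, and gene-level values do not separate its long and short isoforms.

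The pair of active de novo genes thus exchanged places. *Dnmt3b* exceeded *Dnmt3a* 8.30-fold in ES cells, and *Dnmt3a* exceeded *Dnmt3b* 2.75-fold in the forebrain. Of their summed RPKM, *Dnmt3b* made up 89.2% in ES cells and 26.6% in the forebrain. The summed level of both was 1697 in ES cells and 876.9 in the forebrain, a ratio of 1.94, which is smaller than the change of either gene alone. That ratio rests on the exonic lengths divided by. Per kilobase of coding sequence, *Dnmt3b* and *Dnmt3a* had 2456 and 914 reads in ES cells and 565 and 4798 in the forebrain. On that scale their sum was not higher in ES cells. *Dnmt3l* stood at 4.39 times the level of *Dnmt3b* in ES cells. Over all 3 *Dnmt3* genes it made up 79.7% of the summed RPKM in ES cells and 0.451% in the forebrain. With *Dnmt1* added to *Dnmt3a* and *Dnmt3b*, the summed level of the active methyltransferases was 4969 and 4549, a ratio of 1.09. The direction of this small difference also rests on the lengths. Per kilobase of coding sequence *Dnmt1* had 2904 and 4856 reads, and the sum of these 3 genes was lower in ES cells. Part of that gap follows from depth, for which these reads are again not scaled.

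**Figure D2:**
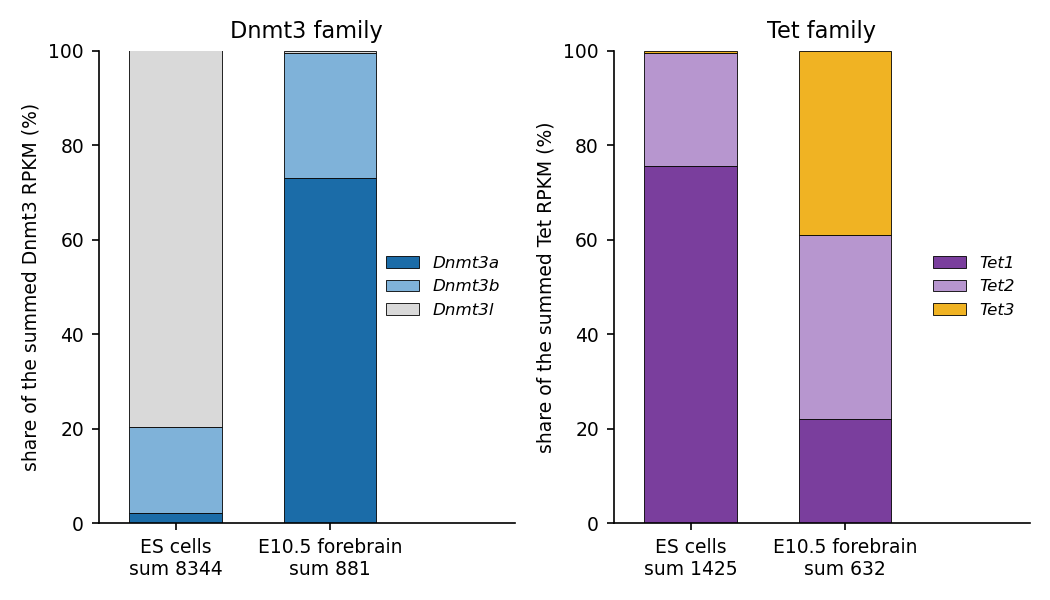
Percent of the summed RPKM taken by each gene of the *Dnmt3* family (left) and of the *Tet* family (right) for the ES cell and forebrain libraries, 1 sample each. *Dnmt3l* (79.7%) and *Tet1* (75.7%) fill most of the ES cell bars, and *Dnmt3a* (73%) and *Tet2* with *Tet3* (39% and 38.8%) most of the forebrain bars.

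The *Tet* genes differed in their makeup, with *Tet1* the highest in ES cells. In the forebrain *Tet2* and *Tet3* stood above it, at near-equal RPKM. *Tet1* (chr10:62267318-62361866, minus strand), which carries a CXXC domain that binds CpG, reached 1079 RPKM (1060 to 1097) in ES cells against 140 (134 to 145) in the forebrain. It was 7.71 times higher in ES cells (7.39 to 8.05), and 6.51% of listed genes had a larger difference in that direction. *Tet2* (chr3:133126643-133207354, minus strand), which lacks that domain, stood at 339 (326 to 352) and 247 (238 to 256), 1.37 times higher in ES cells (1.30 to 1.45) and within 2-fold.

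*Tet3* (chr6:83312367-83391672, minus strand), the oxidase known from the zygote and from neurons, went the other way. Its RPKM was 7.05 (5.43 to 9) in ES cells, from 64 reads, and 245 (237 to 254) in the forebrain, from 3322 reads. The forebrain level was 34.8 times higher (27.2 to 45.3), a log2 difference of -4.94, and 818 listed genes, or 2.79%, had a more negative one. *Tet3* was below the median gene in ES cells and above it in the forebrain.

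*Tet1* exceeded *Tet3* 153-fold in ES cells, and *Tet3* exceeded *Tet1* 1.76-fold in the forebrain. *Tet1*, *Tet2* and *Tet3* took 75.7%, 23.8% and 0.495% of their summed RPKM in ES cells. In the forebrain they took 22.1%, 39% and 38.8%. The intervals of *Tet2*, *Tet3* and *Dnmt3b* overlapped in the forebrain, so that their order there is not set even by counting. It also depends on the length divided by. Per kilobase of coding sequence *Tet3* had 664 reads in the forebrain, *Dnmt3b* 565, *Tet2* 481 and *Tet1* 411. The summed *Tet* level was 1425 in ES cells and 631.9 in the forebrain, a ratio of 2.25. Relative to it, the summed level of *Dnmt1*, *Dnmt3a* and *Dnmt3b* was 3.49 times in ES cells and 7.20 times in the forebrain.

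*Tdg* (chr10:82092573-82113544, plus strand), the glycosylase downstream of the Tet enzymes, was within 2-fold, with 200 RPKM (187 to 214) in ES cells against 276 (263 to 289) in the forebrain. The forebrain level was 1.38 times higher (1.27 to 1.49). Its reads too could be split with copies. *Gm5806* on chromosome 15 (98.7% identity over 2908 bp) stood at 309 and 525, and *Gm9855* on chromosome 10 (99.3% over 1242 bp) at 439 and 747, each above *Tdg* itself and each 1.70 times higher in the forebrain. With all their reads added, *Tdg* would stand at 468 and 732, or 1.56 times higher in the forebrain. The other 6 genes had no copy of at least 200 bp at 90% identity.

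**Figure D3:**
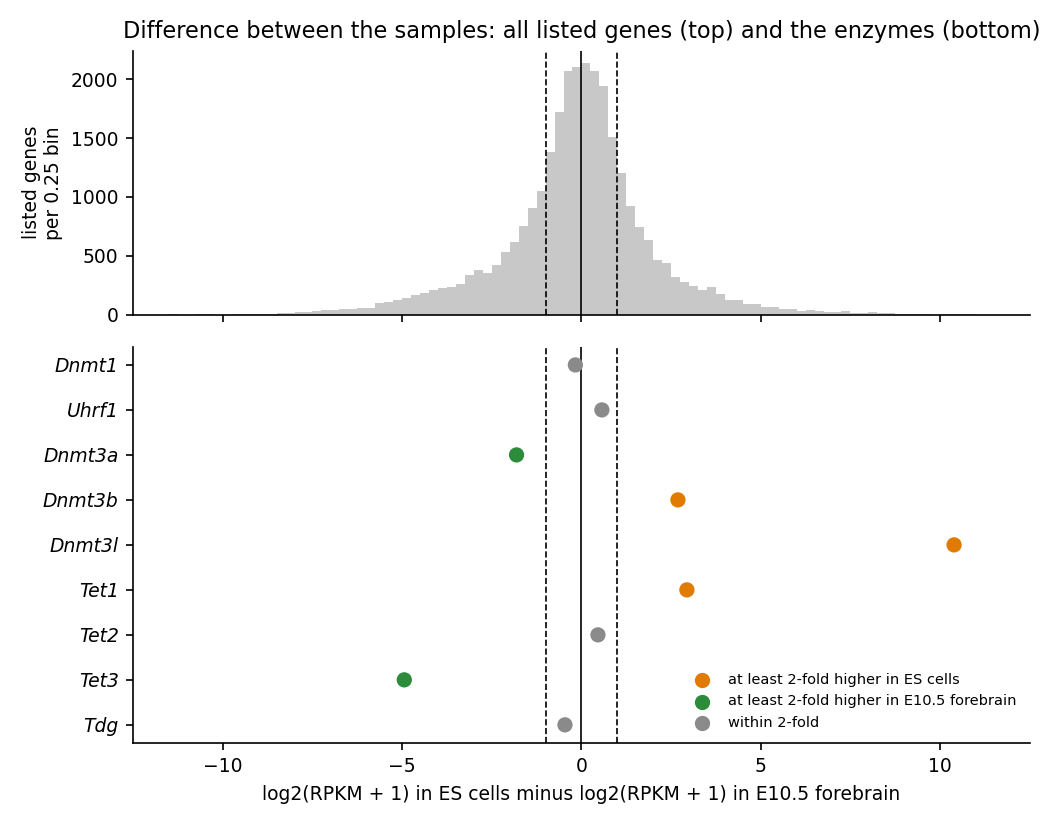
Difference of log2(RPKM + 1), ES cells minus E10.5 forebrain, for all 29311 listed genes (histogram, top) and for the 9 genes (points, bottom), 1 sample per group, with dashed lines at 2-fold. *Dnmt3l* (10.39), *Tet1* (2.94) and *Dnmt3b* (2.69) lie past 2-fold on the ES cell side, *Dnmt3a* (-1.81) and *Tet3* (-4.94) on the forebrain side, and *Uhrf1*, *Tet2*, *Dnmt1* and *Tdg* between.

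By RPKM the order in ES cells was *Dnmt3l*, *Uhrf1*, *Dnmt1*, *Dnmt3b*, *Tet1*, *Tet2*, *Tdg*, *Dnmt3a* and *Tet3*. In the forebrain it was *Uhrf1*, *Dnmt1*, *Dnmt3a*, *Tdg*, *Tet2*, *Tet3*, *Dnmt3b*, *Tet1* and *Dnmt3l*. In ES cells the intervals of *Tdg* and *Dnmt3a* overlapped. The place of *Tdg* also depends on how reads are split with its copies. With their reads added it would stand at 468 in ES cells, above *Tet2* (339). In the forebrain it would stand at 732, above *Dnmt3a* (643). RPKM divides by all exonic bases, which is unfavorable to genes with long untranslated ends. Per kilobase of coding sequence, *Dnmt3a* had 914 reads in ES cells, above *Tdg* (697) and *Tet2* (444). In the forebrain *Dnmt3a* had 4798, close to *Dnmt1* (4856). The top 5 of ES cells and the top 4 of the forebrain kept their order on that scale.

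The wider pathway was followed in 61 further genes, of which 15 were at least 2-fold higher in ES cells (24.6%) and 8 in the forebrain (13.1%), beside 23.3% and 25.8% of all listed genes. The other 38 were within 2-fold. This split depended on scaling. With both columns brought to the same sum it was 10 and 12, and with the 1% of highest genes left out of that sum it was 11 and 11, whereas no count over the 9 genes changed.

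Among 9 replication and maintenance partners, 2 were at least 2-fold higher in ES cells (22.2%, beside 23.3% of all listed genes) and 1 in the forebrain (11.1%, beside 25.8%). Those higher in ES cells were *Hells*, a chromatin remodeler needed for methylation of repeats (RPKM 4184 and 1444, 2.90-fold), and *Usp7*, a deubiquitinase that stabilizes Uhrf1 and Dnmt1 (2908 and 1167, 2.49-fold). *Uhrf2*, the paralog of *Uhrf1*, was higher in the forebrain (478 and 1135, 2.37-fold), opposite in direction to *Uhrf1*. *Pcna*, the replication clamp that binds Dnmt1, is given for its role and was chosen after its values were seen. It stood at 8500 and 8610. Of 12 proliferation markers, 11 were within 2-fold. The exception (8.33%, beside 25.8% of all listed genes) was *Mki67*, higher in the forebrain (760 and 2474, 3.26-fold). By direction alone, 9 of the 12 were higher in ES cells as deposited, and 6 with the columns at the same sum.

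A group of 10 genes held factors that target or protect methylation, but also some that act against its enzymes or their cofactor. Of these 10, 5 were at least 2-fold higher in ES cells (50%, beside 23.3% of all listed genes). In the forebrain 1 was at least 2-fold higher (10%, beside 25.8%). The group mixes opposed roles, so these counts do not describe protection of methylation alone. *Prdm14*, a repressor of *Dnmt3b* and *Dnmt3l* in naive cells, stood at 299 in ES cells and had 0 reads in the forebrain, which makes it at least 312-fold higher against a floor of 3 reads. *Zfp42*, also a pluripotency marker, stood at 11505 and 58.93 (195-fold). *Dppa3*, which hinders Uhrf1, stood at 31.59 from 23 reads and at 0.18, less than 1 whole read, in the forebrain, at least 11.5-fold higher against that floor. The remaining genes were named after their values were seen. *Zfp57* (3037 and 698, 4.35-fold) and its partner *Trim28* (26609 and 12853, 2.07-fold) guard methylation at imprinted genes and were higher in ES cells. *Ehmt1*, a histone H3 lysine methyltransferase, was higher in the forebrain (706 and 1464, 2.07-fold). *Trim28* and *Ehmt1* fell within 2-fold under other scalings.

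Of 14 base excision repair genes, 11 were within 2-fold, 2 were higher in ES cells (14.3%, beside 23.3% of all listed genes) and 1 in the forebrain (7.14%, beside 25.8%). *Ung*, the uracil glycosylase (RPKM 2182 and 643, 3.39-fold), and *Neil1* (211 and 94.38, 2.24-fold) were higher in ES cells, and *Neil3* (34.41 and 220, 6.40-fold) in the forebrain. The Neil proteins excise oxidized bases. *Neil1* fell within 2-fold with the columns at the same sum.

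Of 12 Tet partners and cofactor enzymes, 4 were at least 2-fold higher in ES cells (33.3%, beside 23.3% of all listed genes) and 2 in the forebrain (16.7%, beside 25.8%). *Cxxc4*, which encodes a CpG-binding partner of Tet2, had 2 reads in ES cells and 961 in the forebrain (RPKM 0.47 and 151, 321-fold, 89.0 to 2667). *Gadd45g*, an adaptor of DNA repair, was 44.3-fold higher in the forebrain (12.49 and 554), while *Gadd45b* (160 and 71.49, 2.23-fold) and *Gadd45a* (660 and 302, 2.18-fold) were higher in ES cells. The latter pair fell within 2-fold with the columns at the same sum. *Apobec2*, of the cytidine deaminase family, stood at 436 and 20.51 (21.3-fold).

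A list of 9 genes held readers of methylated DNA and genes grouped with them by family name, not all of which need bind it. Of these 9, 3 were at least 2-fold higher in the forebrain (33.3%, beside 25.8% of all listed genes), 1 in ES cells (11.1%, beside 23.3%) and 5 were within 2-fold. Those higher in the forebrain included *Zbtb33*, which encodes Kaiso (282 and 830, 2.95-fold), and *Mbd6* (31.79 and 69.50, 2.19-fold). *Zbtb38* was higher in ES cells (290 and 80.58, 3.60-fold). Of 7 genes that supply S-adenosylmethionine, the methyl donor, 6 were within 2-fold and 1 (14.3%, beside 23.3% of all listed genes), *Mtrr*, methionine synthase reductase, was 2.85-fold higher in ES cells (573 and 201). *Mat1a*, the liver form of the synthetase, had 1 read in ES cells and 0 in the forebrain.

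**Figure D4:**
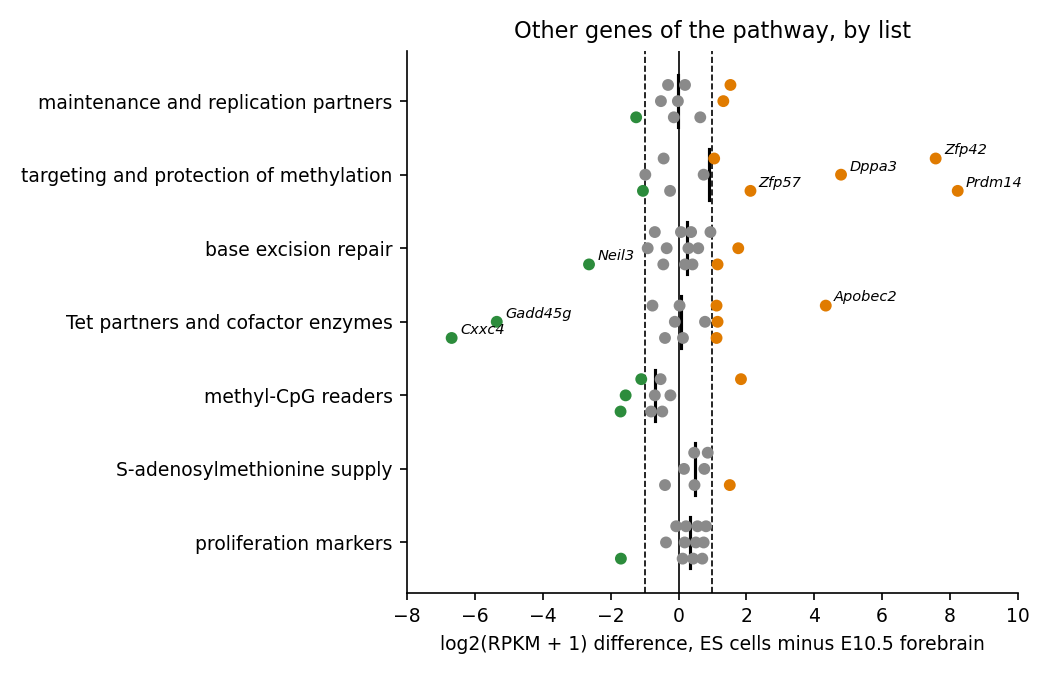
Difference of log2(RPKM + 1), ES cells minus E10.5 forebrain, for each gene of the 6 pathway lists and of the proliferation markers, 1 sample per group, with dashed lines at 2-fold and a thick bar at the median of each list, and names on the farthest points. Most points lie between the lines, and the farthest are *Prdm14* (8.23) and *Zfp42* (7.58) on the ES cell side and *Cxxc4* (-6.69) and *Gadd45g* (-5.36) on the forebrain side.

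The samples carried the markers of their labels, and the forebrain those of other cells as well. All 9 pluripotency markers were at least 2-fold higher in ES cells (summed RPKM 41848 and 162), led by *Zfp42* and *Pou5f1*, and all 7 forebrain progenitor markers listed in the forebrain (203 and 5802), led by *Nes* (4127) and *Lhx2* (877), which had 0 reads in ES cells. Blood markers summed to 406 and 798663, or 1.55% of all forebrain RPKM, led by *Hbb-y* and *Hbb-bh1*. Mesenchyme markers summed to 68.8 and 17587, led by *Col3a1* and *Col1a2*, and endothelial ones to 629 and 2440, led in the forebrain by *Kdr* and *Cldn5*. Of the 6 endothelial markers 5 were at least 2-fold higher in the forebrain, whereas *Pecam1*, named after its values were seen, was 1.74-fold higher in ES cells (551 and 317) and made up most of the ES cell sum. Of 6 neuron markers 5 were higher in the forebrain, led by *Tubb3* (795 and 3318), but *Stmn2* was higher in ES cells (6910 and 1056). Of 8 endoderm and early mesoderm markers, 3 were at least 2-fold higher in ES cells and 5 in the forebrain. Their sum was 1221 in ES cells and 345 in the forebrain, and in ES cells it came mostly from *T* (1112 and 2.66). *Eomes*, the next in ES cells, was higher in the forebrain (90.06 and 234). Of the 3 higher in ES cells, *Gata4* (10 and 2 reads) and *Mixl1* (17 and 3 reads), named after their values were seen, had few reads. Whether the genes of this list mark endoderm or mesoderm in the forebrain sample was not tested. No defining blood or mesenchyme marker was at 0 in either sample. Their reads in ES cells were few, however, from 5 for *Hba-x* and *Foxc2*, both named after their values were seen, to 183 for *Col1a2*. The part of the other cell types of the forebrain sample in the levels of the 9 genes was not tested. In bulk tissue fewer cells that express a gene and less RNA per cell cannot be told apart, which bears on each forebrain level above.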

How the data were processed

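RNA was measured by ribosomal RNA-depleted, strand-specific, single-end RNA sequencing in 2 libraries, ES cells and E10.5 forebrain. Reads were processed by the authors with the HTSstation pipeline on NCBIM37, and the submitters' processing notes name Bowtie 0.12.7. The read length is 100 bp in the labels and 50 bp in the study's methods, and whether counting used strand is not given in the sources used here. The deposited values are RPKM per gene (29311 genes, Ensembl identifiers and coordinates). One read per kilobase was worth more in them than a per-million scale gives at this depth, so the scaling behind the word RPKM is not known, and the columns were compared as deposited.

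Levels were compared as log2(RPKM + 1), with a pseudocount of 1 and no filter on low values. Reads were inferred from the step that 1 read makes in RPKM times exonic length (1.22 in ES cells, 0.8191 in forebrain). Of 4253 and 4072 genes of low value, 57.8% and 58% lay within 0.05 of a whole multiple (10% by chance), so these counts are approximate and include split reads. They gave 42796251 and 59785185 reads on genes, with 26646 and 27009 genes above 0. Intervals (95%) are exact Poisson or exact conditional binomial (scipy 1.17.1) and cover counting error only. With 1 sample per group there was no test and no p-value, and a gene was called at 2-fold. The steps were tested on simulated data. Near-identical copies were sought with blastn 2.17.0 (at least 90% identity over 200 bp), and promoter windows are those of RefSeq. Protein sequences were not used here, nor was *Sox1*. Some genes counted in the lists are not reported here by name. The 9 genes and all lists were chosen with earlier results of these data known. Named genes are all 9, up to 3 per list and direction with the largest difference past 2-fold, any gene under 3 reads in both samples, the 2 highest markers per cell type, and overlapping genes or copies. Others are said to have been chosen after their values were seen. Alternatives were 5 scalings, 2 pseudocounts, a filter of 10 reads, 2 folds, added copies and other lengths.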

Additional observations from a re-analysis of the deposited data

How the results depend on the processing

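Over 11 settings, 22 of 22 counts of the 9 genes kept their value of 3 and 2. Of 81 log2 differences of these genes recomputed, 0 changed sign. Some of these outcomes were fixed beforehand. The filter of 10 reads could change no value, because each of the 9 genes passes it. The 2 other pseudocounts could change the size of a difference but not its sign. Adding copies could change only *Uhrf1*, *Dnmt3b* and *Tdg*. The ranges were 9.53 to 10.67 for *Dnmt3l*, 2.67 to 3.03 for *Tet1*, 2.42 to 2.78 for *Dnmt3b*, -2.08 to -1.72 for *Dnmt3a*, -5.19 to -4.38 for *Tet3*, 0.30 to 0.66 for *Uhrf1*, 0.18 to 0.54 for *Tet2*, -0.44 to -0.08 for *Dnmt1* and -0.73 to -0.37 for *Tdg*. Scaling to the same sum moved the median gene to -0.26, and to -0.22 without the 1% of highest genes, so the small differences of *Dnmt1*, *Tdg*, *Tet2* and *Uhrf1* rest on the scaling for their size. These added settings (that sum and the added copies) were chosen after seeing the data.

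The count of the 61 pathway genes higher in the forebrain was 14 at 1.5-fold and 4 at 3-fold, and that of genes higher in ES cells was 21 and 7, which follows from the fold asked for. At 1.5-fold 32.5% and 34.2% of all listed genes were past the fold in ES cells and forebrain, and at 3-fold 15% and 18.1%. Of the summed *Dnmt3a* and *Dnmt3b* level, *Dnmt3b* took 85.1% in ES cells and 19.99% in the forebrain per length of the longest transcript, and 72.88% and 10.53% per coding length. *Tet1* took 82.3% and 26.4% of the *Tet* sum per coding length. These moves follow from the lengths divided by.

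No replicate could be left out with 1 sample per group. No paired analysis was possible because each group has 1 sample and no result comes from a test. Depth limits the forebrain level of *Dnmt3l* (14 reads) and the ES cell level of *Tet3* (64 reads).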

Other observations

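Genes that overlap one of the 9 or start within 1000 bp of it were also listed. *Aire*, the thymic regulator, lies on the minus strand beside *Dnmt3l* and shares 67 bp of exon with it. It stood at an RPKM of 53.94 in ES cells, from 169 reads, and had 0 reads in the forebrain, at least 84.0-fold higher against a floor of 3 reads. *7530422B04Rik*, which runs antisense from the start of *Dnmt3b* with no shared exon, had 18 reads in ES cells and 10 in the forebrain, a ratio of 2.68 (1.17 to 6.50). *Dnmt3l* and *Dnmt3b* thus each had a neighbor with the higher level in the same sample. If counting did not use strand, reads of *Aire* and *Dnmt3l* over the shared bases cannot be told apart.

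The lincRNA *B230319C09Rik* starts 77 bp from *Tet3* on the opposite strand without overlap, and was singled out after its values were seen. It stood at 8.81 in ES cells (16 reads) and at 69.46 in the forebrain (188 reads), 7.88 times higher in the forebrain (4.73 to 14.1), in the direction of *Tet3*. *Glt8d2*, which shares 367 bp of exon with *Tdg*, stood at 19.46 and 35.26, 1.81 times higher in the forebrain (1.42 to 2.33). *Gm10485*, antisense within *Dnmt3a* with 133 bp shared, had 2 and 10 reads, and its interval of 0.715 to 31.5 around a forebrain ratio of 3.36 includes 1. A U6 copy inside *Tet1* had 14 and 0 reads, and the microRNA gene *AC159324.1* inside *Dnmt3a* had 0 and 1.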
